A study of Vitis vinifera with 165 samples.

Results

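The enzymes of the core flavonoid pathway were followed through the ripening of Pinot noir grapes (Vitis vinifera), a variety grown for red wine. The set holds 9 gene models, chosen by identifier from the 29971 in the expression table. They are 3 chalcone synthases (VIT_14s0068g00930, VIT_14s0068g00920 and VIT_05s0136g00260), 2 chalcone isomerases (VIT_13s0067g03820 and VIT_13s0067g02870), 2 flavanone 3-hydroxylases (VIT_04s0023g03370 and VIT_18s0001g14310), the dihydroflavonol reductase VIT_18s0001g12800 and the leucoanthocyanidin dioxygenase VIT_02s0025g04720. All 9 passed the filter on low values, and the lowest value of any of them in any library was 5.36 RPKM (reads scaled by gene length and by library depth).

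Flavonoids are built from a coumaroyl thioester and malonyl units. Chalcone synthase joins them into a chalcone, chalcone isomerase closes its ring to a flavanone, and flavanone 3-hydroxylase turns the flavanone into a dihydroflavonol. Dihydroflavonol reductase and leucoanthocyanidin dioxygenase carry the product on to the anthocyanidins, the coloured core of the red skin pigments. Flavonols leave the route at the dihydroflavonol, and tannin units leave it near its end. In red grapes tannins are known to be laid down in the green berry and anthocyanins from veraison on, the onset of softening and colour change, so that the same enzymes serve different products at different ages.

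The 165 libraries came from berries of 3 seasons, with 48 libraries in 2012, 54 in 2013 and 63 in 2014. All vines were of clone FPS 23 on the rootstock Freedom, planted in 2001 near Modesto, California. After fruit set the clusters were thinned to lower the crop by 50%, with 1 cluster left on a shoot, or by 75%, with a cluster left on every other shoot. An unthinned control is described in the labels and was not analysed here. Each library was made from a pool of 60 berries of 6 clusters with the seeds removed, and 3 libraries were made for each season, thinning level and day, which gave 55 groups. The tissue is labelled pericarp. The design names 3 rows per treatment and 8-vine blocks. Which row or vine block a replicate number stands for is not stated, so the p-values reflect only how much these pools varied. The fits treat libraries of different days as independent. The files do not pair identifiers with gene names, and the enzyme roles used here were assigned to the identifiers and not read from the files, so the tissue could not be checked against marker genes. RPKM values hold no read counts, and the depth behind each value is unknown. The median Pearson r between replicate libraries, over gene models, was 0.987 (lowest 0.915). Replicate 2 of the 75% level on day 0 of 2012 and replicates 1 and 3 of the 50% level on day -18 of 2012 had the lowest mean r with their replicates (0.916, 0.945 and 0.940). Counts of calls without the first of these libraries, and without replicates 1 and 3 or 1 and 2 of day -18, are given among the limits.

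In the green berry the median levels of the 9 enzymes lay between 13.8 and 83.6 RPKM, and on day 21 after veraison 1 chalcone synthase stood far above the others. The green stage is day -18 in 2012 and day -14 in 2013 and 2014, with 18 libraries over both thinning levels, and it is set against the 18 libraries of day 21. At the green stage the median levels ran from 83.6 RPKM for the leucoanthocyanidin dioxygenase VIT_02s0025g04720, through 71.6 for the isomerase VIT_13s0067g02870 and 65.8 for the chalcone synthase VIT_05s0136g00260, down to 13.8 for the chalcone synthase VIT_14s0068g00930. Neighbours in this order overlapped in every case. At day 21 VIT_05s0136g00260 had a median of 1048 RPKM, and its lowest library there, at 818 RPKM, was above the highest library of any other member, 280 RPKM for the dioxygenase VIT_02s0025g04720. The next in order were the isomerase VIT_13s0067g03820 with a median of 209 RPKM and the dioxygenase with 192, whose ranges overlapped.

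**Figure D1:**
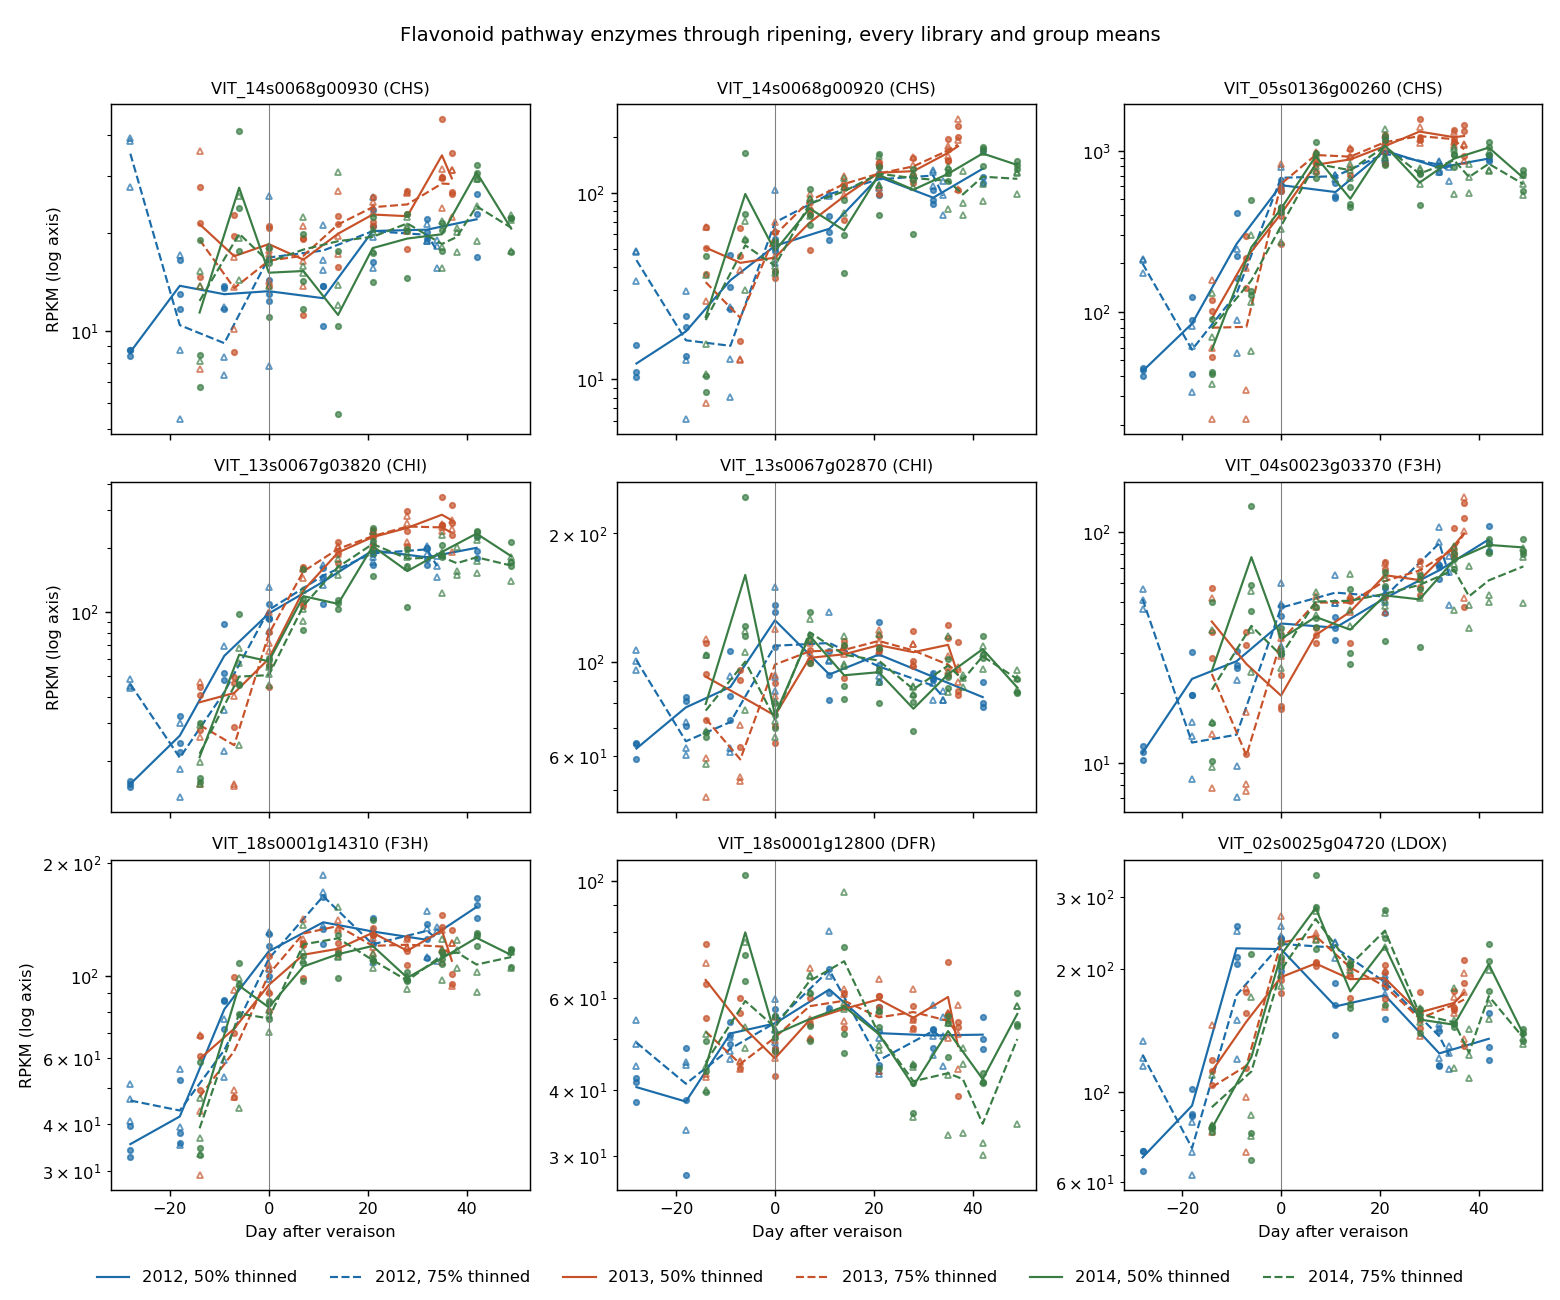
RPKM of the 9 enzymes (log axis, 1 panel for each) against the day after veraison. Points are single libraries, lines join the means of 3 libraries, colours give the season and solid or dashed lines the thinning level; CHS is chalcone synthase, CHI chalcone isomerase, F3H flavanone 3-hydroxylase, DFR dihydroflavonol reductase and LDOX leucoanthocyanidin dioxygenase. VIT_05s0136g00260 goes from 21.8 to 158 RPKM at the green stage to 818 to 1351 RPKM on day 21, while the reductase VIT_18s0001g12800 stays between 27.6 and 103 RPKM in all libraries.

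From the green stage to day 21, 6 of the 9 enzymes rose by at least 1 on the log2(RPKM + 1) scale with an adjusted p below 0.05 (limma, Benjamini-Hochberg over 20460 tested gene models), and 0 fell. Of all tested gene models 7.66% rose by this rule and 22.3% fell. On the adjusted p alone all 9 were higher, as were 28.2% of all gene models. The median change of the 9 was 1.41, against -0.30 over all tested gene models. After quantile normalization, which moved the median of all gene models by 0.36, to 0.06, the shares became 12.7% and 14.5%, and 7 of the 9 rose.

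The largest of the 9 changes was that of a chalcone synthase, the entry enzyme. VIT_05s0136g00260 had a lowest, median and highest value of 21.8, 65.8 and 158 RPKM in the green berry and of 818, 1048 and 1351 RPKM on day 21. Every ripe library was above every green one. The log2 change was 3.95 ± 0.17 (SE, 18 against 18 libraries, adjusted p = 1.77e-44), with 3.88 in 2012, 3.91 in 2013 and 4.07 in 2014. The chalcone synthase VIT_14s0068g00920 went from a median of 20.5 RPKM (6.11 to 65.9) to 126 RPKM (76.1 to 161), and the groups did not overlap. Its change was 2.49 ± 0.17 (adjusted p = 7.38e-28). VIT_14s0068g00930, whose identifier follows next to it, went from 13.8 RPKM (5.36 to 35.8) to 21.0 RPKM (14.2 to 25.8), with overlapping groups. Its change of 0.60 ± 0.13 passed the adjusted p of limma (7.00e-06) and not the fold; it reached 1.02 ± 0.13 after quantile normalization. Chalcone synthases can be near-identical copies, and reads could be split between such copies in these values, so the single values of VIT_14s0068g00920 and VIT_14s0068g00930 are uncertain.

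The 2 chalcone isomerases changed places. VIT_13s0067g03820 went from 25.2 RPKM (13.5 to 47.0) to 209 RPKM (147 to 249), a log2 change of 3.02 ± 0.11 (limma, adjusted p = 7.21e-50) with no overlap between groups. VIT_13s0067g02870 went from 71.6 RPKM (48.2 to 113) to 105 RPKM (79.9 to 124), with overlap. Its change of 0.44 ± 0.07 passed the adjusted p and not the fold. Thus the isomerase that was the lower of the pair in every green library was the higher one in every library of day 21.

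For the enzymes further along the route the changes lay between 0.16 and 1.44. The flavanone 3-hydroxylase VIT_18s0001g14310 went from 41.4 RPKM (29.3 to 69.2) to 122 RPKM (104 to 143), with a change of 1.44 ± 0.08 (limma, adjusted p = 7.09e-36) and no overlap. The second one, VIT_04s0023g03370, went from 17.3 RPKM (7.72 to 57.2) to 53.9 RPKM (33.7 to 74.0), with overlap and a change of 1.41 ± 0.15 (adjusted p = 2.60e-15). The dioxygenase VIT_02s0025g04720 went from 83.6 RPKM (62.5 to 146) to 192 RPKM (151 to 280). Its groups did not overlap, and its change of 1.12 ± 0.09 (adjusted p = 2.97e-24) stood just past the fold; it was 0.81 in 2013 alone, where 5 of 9 enzymes rose (7.68% of all gene models), and 0.71 with day -9 as the green stage of 2012, both below it. The reductase VIT_18s0001g12800, from 44.5 RPKM (27.6 to 76.0) to 52.2 RPKM (43.0 to 65.2), had the smallest change of the set, 0.16 ± 0.07 (adjusted p = 0.0206). In bulk berries a change in the share of cells that make a transcript cannot be told apart from a change in its amount per cell.

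**Figure D2:**
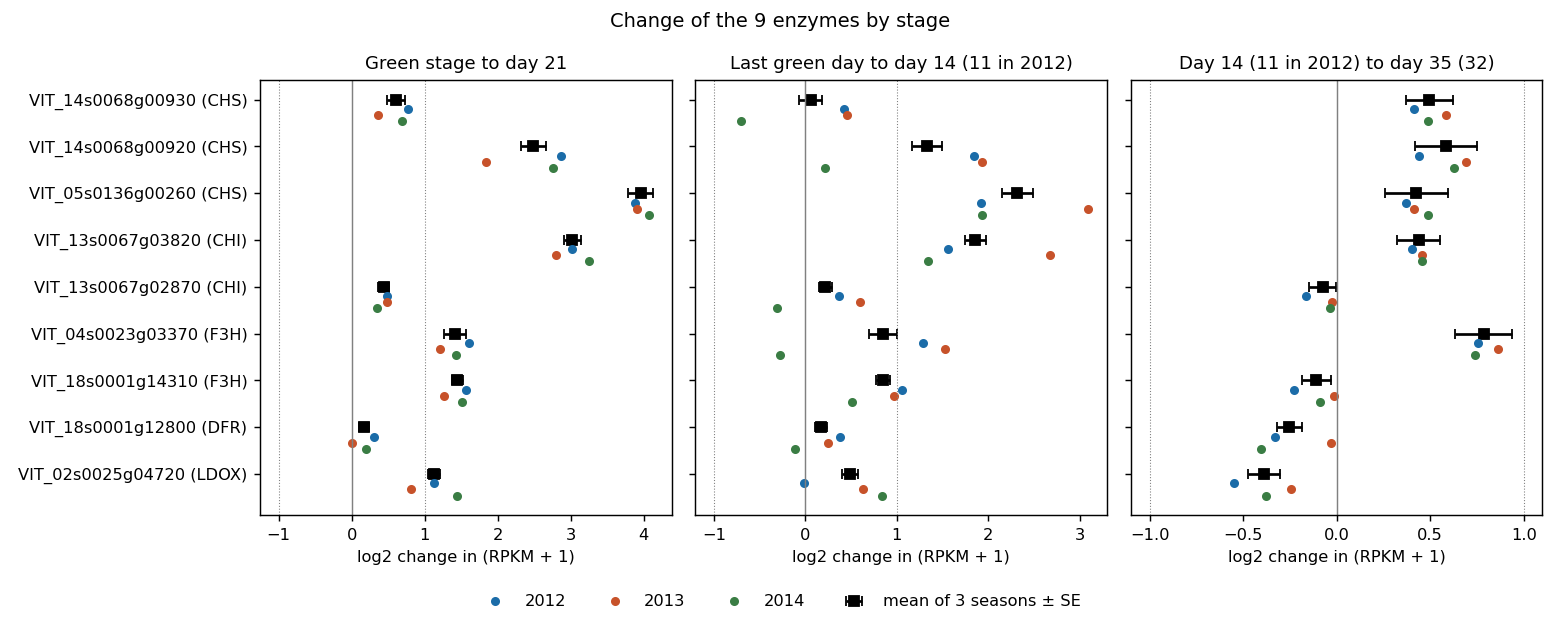
Log2 change in (RPKM + 1) of the 9 enzymes from the green stage to day 21, from the last green day to day 14 (day 11 in 2012), and from there to day 35 (day 32 in 2012). Squares with bars are the mean of 3 seasons ± SE, coloured points the single seasons and dotted lines mark a change of 1. In the middle panel the seasons lie furthest apart for VIT_04s0023g03370, at 1.29, 1.53 and -0.28 in 2012, 2013 and 2014.

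The shares of the copies within a family were as follows. VIT_05s0136g00260 held 65.2% ± 8.44 (SD, n = 18 libraries) of the summed chalcone synthase RPKM in the green berry and 87.8% ± 0.91 on day 21. VIT_14s0068g00920 held 21.6% ± 7.18 and 10.4% ± 0.75, and VIT_14s0068g00930 held 13.2% ± 2.77 and 1.77% ± 0.32. Of the isomerase sum VIT_13s0067g03820 held 24.6% ± 4.07 in the green berry, between 18.3% and 30.4%, and 66.7% ± 1.55 on day 21, between 64.3% and 69.8%. Of the hydroxylase sum VIT_04s0023g03370 held 31.9% ± 9.69 in the green berry and 31.4% ± 3.93 on day 21. On day 32 or 35 its share was 39.1% ± 3.35. The shares of a family sum to 100% by construction, and no test was made of them.

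**Figure D3:**
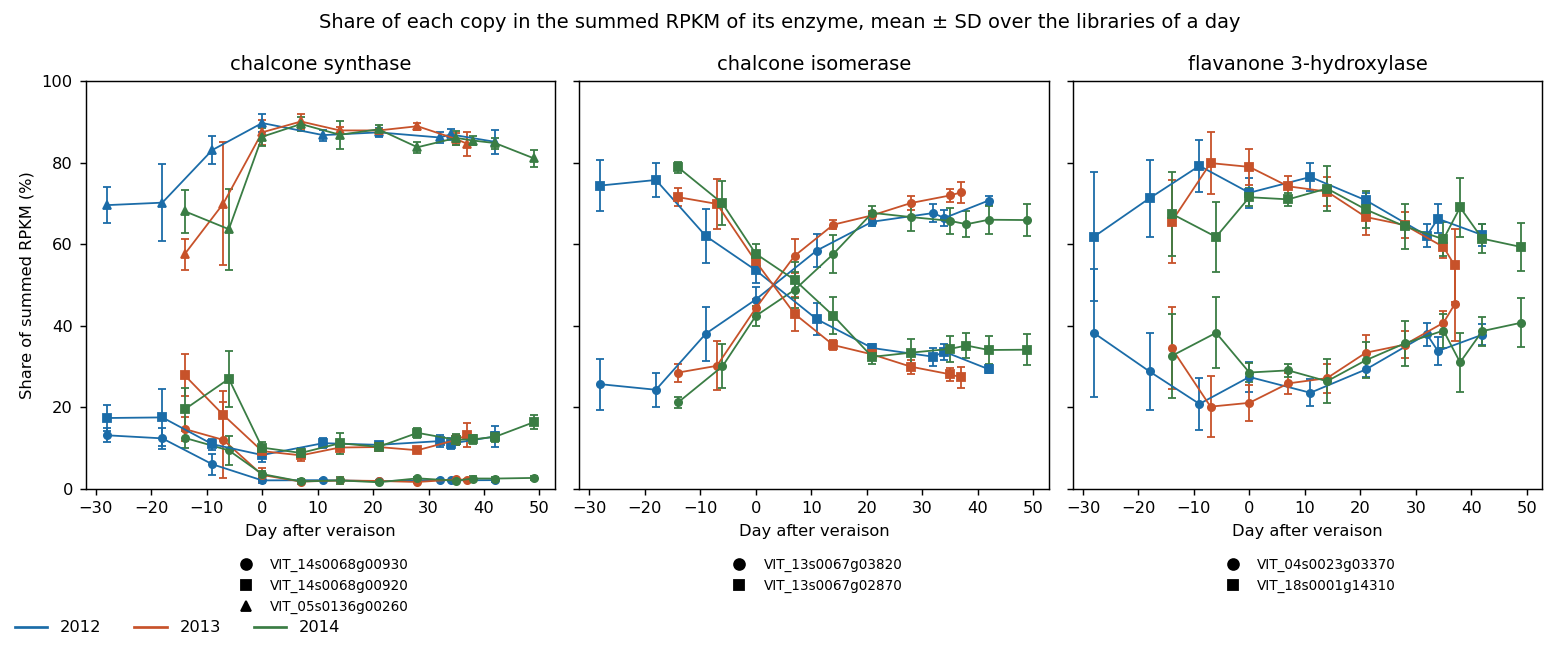
Share (%) of each gene model in the summed RPKM of its enzyme against the day after veraison, as the mean ± SD over the libraries of a day (6 on most days, 3 on days sampled at 1 thinning level). Colours give the season and symbols the gene model. The mean share of the isomerase VIT_13s0067g03820 is 42.4% to 46.4% on day 0 and above 50% from day 14 on (11 in 2012), and VIT_05s0136g00260 holds 86.3% to 89.7% of the chalcone synthase sum on day 0.

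The main rise fell in the weeks around veraison. Of the 23 steps between neighbouring matched days, 7 held a call by the same fold rule, 18 calls in all and all of them upward. In 2012, 3 enzymes rose from day -18 to day -9, where 5.21% of all tested gene models did, and 4 from day -9 to day 0 (1.52% of all). In 2013, 2 rose from day -7 to day 0 (0.924%) and 1 from day 0 to day 7 (1.88%). In 2014, 5 rose from day -14 to day -6 (2.49%), 1 from day -6 to day 0 (3.05%) and 2 from day 0 to day 7 (0.391%). The rise of 2014 was not steady. From day -6 to day 0 the change was above 0 for 3 of 9, with a median of -0.37, against -0.16 over all tested gene models. No step from day 7 on held a call in any season, where 0.0196% to 1.42% of all gene models rose and 0% to 2.12% fell. The step from day 0 to day 11 of 2012 held none either (2.19% and 2.15%). With such small shares the lack of calls is not particular to these enzymes.

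The steps that passed were not the same for each enzyme. The dioxygenase VIT_02s0025g04720 rose early in 2012, by 1.23 ± 0.15 from day -18 to day -9 (limma, adjusted p = 1.42e-12), and its value from day -9 to day 0 was 0.23 ± 0.15 (adjusted p = 0.159). In that same second step VIT_05s0136g00260 rose by 1.98 ± 0.29 (adjusted p = 3.65e-09) and VIT_14s0068g00920 by 1.40 ± 0.29 (adjusted p = 1.20e-05). The isomerase VIT_13s0067g03820 rose in both steps, by 1.04 each time. In 2013 VIT_05s0136g00260 rose by 2.21 ± 0.29 from day -7 to day 0 (adjusted p = 2.20e-10), from a mean of 149 ± 107 RPKM (SD, n = 6) to 513 ± 193.

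Maxima over the days sampled at both thinning levels were not on the same day for each enzyme. The dioxygenase had its highest mean at day 0 in 2012 (227 ± 24.9 RPKM, SD, n = 6) and at day 7 in 2013 (224 ± 19.2) and 2014 (274 ± 41.4). On the last matched day it stood at 57.4%, 76.7% and 50.0% of that level. The flavanone 3-hydroxylase VIT_04s0023g03370 had its highest mean on the last matched day in each season, with 78.9 ± 15.7 RPKM in 2012 (day 32), 98.6 ± 40.6 in 2013 (day 37) and 78.4 ± 15.4 in 2014 (day 49). In 2013 the 6 libraries behind this mean were spread from 47.3 to 142 RPKM. VIT_05s0136g00260 had its highest mean on day 21 in 2012 and 2014 (977 ± 144 and 1066 ± 213 RPKM) and on day 28 in 2013 (1270 ± 171).

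From day 14 (11 in 2012) to day 35 (32 in 2012), 0 of the 9 enzymes passed the fold, which 6.68% of all tested gene models did. On the adjusted p alone 5 were higher and 2 lower, where 39.9% and 32.4% of all gene models were. The 7 of 9 stand beside 72.2% of all gene models in either direction. The hydroxylase VIT_04s0023g03370 was higher by 0.79 ± 0.15 (limma, adjusted p = 2.25e-06) and VIT_14s0068g00920 by 0.59 ± 0.17 (adjusted p = 0.00117). The last enzymes of the route were lower, the dioxygenase by -0.39 ± 0.09 (adjusted p = 2.39e-05) and the reductase by -0.25 ± 0.07 (adjusted p = 5.36e-04). An F-test for a difference of this change between seasons called 0 of 9 (39.8% of all gene models), and 0 had an unadjusted p below 0.05.

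The change across veraison itself was not alike in the 3 seasons. From the last green day (day -9 in 2012, -7 in 2013, -6 in 2014) to day 14 (11 in 2012), 3 of 9 rose by at least 1, against 4.13% of all tested gene models. They were VIT_05s0136g00260 (2.32 ± 0.17), VIT_13s0067g03820 (1.86 ± 0.11) and VIT_14s0068g00920 (1.33 ± 0.17); after quantile normalization 5 rose (6.46% of all gene models), with the median of all gene models moved by 0.29. On the adjusted p alone 8 were higher (22.0% of all). The F-test for a difference between seasons passed for all 9 (limma, adjusted p from 1.52e-05 to 0.0222), as it did for 59.4% of all gene models. The last green days were not matched by sugar. Their mean sugar labels were 5.07 in 2012, 3.96 in 2013 and 1.74 in 2014, in the unit given further below. The part of these unequal starts in the season difference was not tested. For VIT_04s0023g03370 the change was 1.29 in 2012, 1.53 in 2013 and -0.28 in 2014 (SE 0.26 each), and for VIT_14s0068g00920 it was 1.85, 1.93 and 0.21 (SE 0.29 each). VIT_14s0068g00930 and the isomerase VIT_13s0067g02870 were lower in 2014, by -0.71 ± 0.22 and -0.31 ± 0.13, on the adjusted p alone, as were 53.4% of all gene models.

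The early day of 2014 held libraries far apart. On day -6 of 2014 VIT_04s0023g03370 measured 129, 45.3 and 58.9 RPKM at 50% thinning and 24.7, 55.3 and 37.7 RPKM at 75%. VIT_05s0136g00260 measured 492, 128 and 135 RPKM at 50% and 57.1, 115 and 298 RPKM at 75%. A single library, replicate 1 of the 50% level, was the highest of the 6 for both. With day 0 taken as the early day of 2014, the F-test passed for 5 of 9, where 49.8% of all gene models passed. Without the libraries of replicate number 2 it also passed for 5, where 53.1% of all did.

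The sugar labels of 2014 set day 0 apart as well. On that day the 6 samples held 1.40 to 2.15 g of sugar per 100 ml, where the 12 samples of day 0 in 2012 and 2013 held 9.25 to 13.4. These are the values of the labels, and whether they hold an error was not tested; the fits with sugar as a covariate use them as given. The enzyme levels of day 0 in 2013 and in 2014 overlapped. VIT_05s0136g00260 measured 447, 443, 418, 271, 424 and 326 RPKM on day 0 of 2014, and 395, 264, 558, 437, 821 and 605 RPKM on day 0 of 2013. On day 0 of 2012 it measured 562 to 654 RPKM at 50% thinning and 607 to 795 at 75%, above every library of 2014. Both isomerases and the hydroxylase VIT_18s0001g14310 also lay above 2014 in every library of 2012, and the other enzymes overlapped. The difference from 2012 on this day was not tested. The share of all gene models without overlap was not counted for it, so the lack of overlap cannot be set against that share. The dioxygenase measured 208 ± 16.7 RPKM (SD, n = 6) in 2014, 212 ± 34.9 in 2013 and 227 ± 24.9 in 2012. By limma 0 of 9 enzymes differed between 2013 and 2014 on day 0 on the adjusted p (12.8% of all gene models), with 1 at an unadjusted p below 0.05.

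Set against 2013 on the 7 days both seasons shared, 2014 had 0 calls by the fold rule, where 7.37%, 1.98%, 3.64%, 3.98%, 2.63%, 3.16% and 2.15% of all tested gene models passed on days -14, 0, 7, 14, 21, 28 and 35. On the adjusted p alone 13 of the 63 values were lower in 2014 and 0 higher, on day -14 (5), 14 (2), 28 (4) and 35 (2). On those days 30.1%, 19.4%, 14.2% and 14.2% of all gene models were lower. Among the 13 was VIT_05s0136g00260 on day 28, with 1270 ± 171 RPKM in 2013 and 675 ± 120 in 2014 (SD, n = 6), a difference of -0.92 ± 0.29 (limma, adjusted p = 0.0102). The isomerase VIT_13s0067g03820 was among them on day -14, 14, 28 and 35, by -0.54 to -0.60. With 2014 taken 7 days later, calls on the adjusted p went both ways. On day 7 against day 0 of 2013 VIT_05s0136g00260, both isomerases and VIT_04s0023g03370 were higher, by 0.44 to 0.84. VIT_13s0067g02870, VIT_18s0001g14310 and the reductase were lower on day 28 against day 21, by -0.35 to -0.46. So was the reductase on day 42 against day 35 (-0.57). VIT_13s0067g03820 was at -0.46 to 0.07 in the later pairs. Shares over all gene models were not counted there. On day 21 the F-test over all 3 seasons called 0 of 9 with a range of 1 (4.20% of all gene models); on the adjusted p alone it passed for the dioxygenase (adjusted p = 0.0435, 42.3% of all), with 179, 185 and 238 RPKM in 2012, 2013 and 2014.

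Over the 26 days sampled at both levels none of the 9 enzymes passed the test for thinning. The mean log2 difference, 75% minus 50%, lay between -0.05 (VIT_05s0136g00260, SE 0.08) and 0.07 (VIT_14s0068g00930, SE 0.06), and 0 of 9 passed limma's adjusted p of 0.05, where 2.90% of all tested gene models did. No member had an unadjusted p below 0.05. From day 21 to harvest 0 of 9 passed (5.04% of all), again with 0 at an unadjusted p below 0.05. From veraison to day 14 the difference was above 0 for all 9, between 0.07 and 0.34, and 0 passed (3.54% of all), with 4 at an unadjusted p below 0.05.

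Before veraison the difference pointed downward for all 9, and 2 passed, against 2.03% of all gene models in either direction and 1.52% downward. The median over all tested gene models was 0.01, and the share below 0 was not counted. VIT_04s0023g03370 was lower at 75% by -0.54 ± 0.14 (limma, adjusted p = 0.0173) and lower on 6 of the 7 days. The isomerase VIT_13s0067g02870 was lower by -0.24 ± 0.07 (adjusted p = 0.0327), also on 6 of 7 days. On means over the libraries of a replicate number, season and level, 0 of 9 passed. Both calls were also lost when any 1 of the 3 replicate numbers was left out (0 of 9 each time), and without day -18 or day -9 of 2012, day -14 or day -7 of 2013 or day -6 of 2014. Without day -28 of 2012, 5 of 9 were lower, where 2.28% of all gene models were.

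The 2 phases differed from each other in 3 enzymes, where 5.73% of all tested gene models passed. The thinning difference was higher from veraison to day 14 than before veraison by 0.86 ± 0.20 for VIT_04s0023g03370 (limma, adjusted p = 0.00238), by 0.76 ± 0.22 for VIT_14s0068g00920 (adjusted p = 0.0195) and by 0.31 ± 0.09 for VIT_13s0067g02870 (adjusted p = 0.0275). Leaving out any 1 of the 3 replicate numbers gave 0 to 1 calls over the 2 phase differences tested, and with the sugar content of each sample as a covariate 0 passed. On means over the libraries of a replicate number, season and level, 1 passed. Day 21 to harvest against before veraison gave 0 of 9 (3.55% of all), with 3 at an unadjusted p below 0.05.

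**Figure D4:**
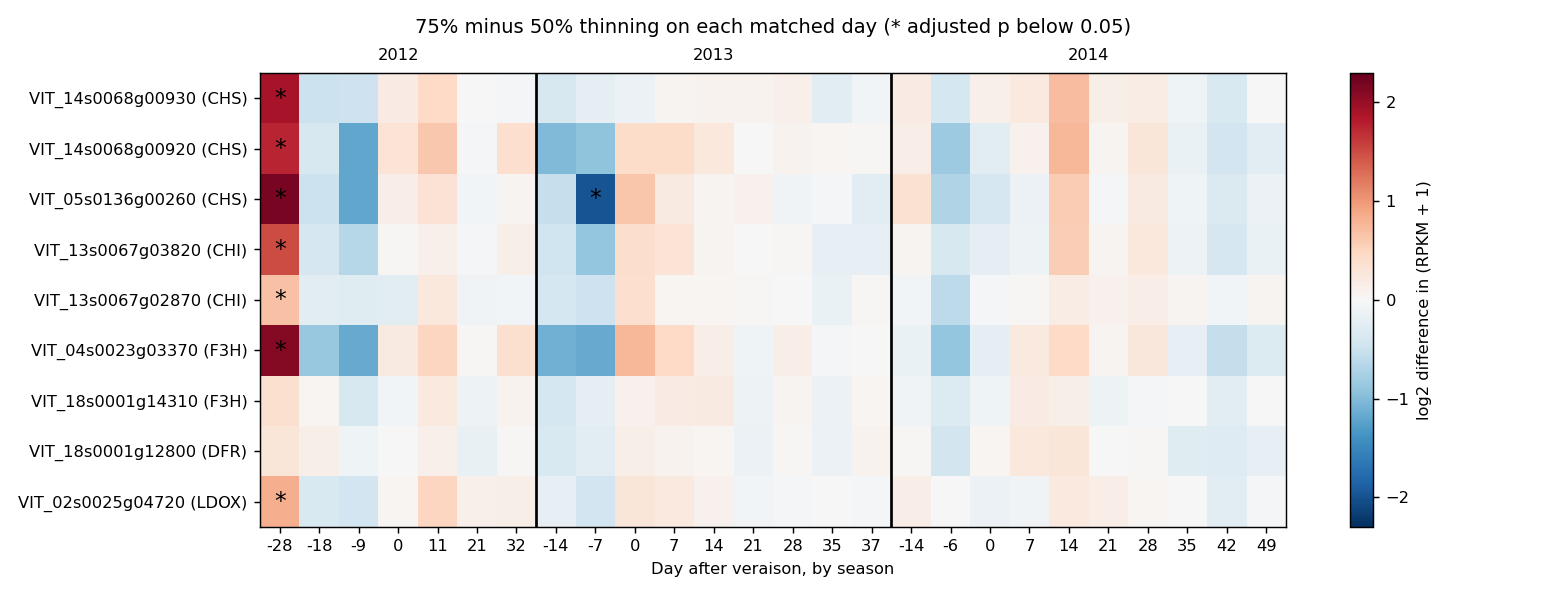
Difference in log2(RPKM + 1) between 75% and 50% thinning for the 9 enzymes (rows) on the 26 matched days (columns, by season), from 3 libraries at each level. Red is higher at 75% thinning, blue lower, and an asterisk marks an adjusted p below 0.05. Of the 8 asterisks 7 stand on day -28 of 2012, all red, and 1 on day -7 of 2013.

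The first sampling day of 2012 went against the later green days. On day -28 of 2012, 7 of 9 enzymes were higher at 75% thinning, where 21.0% of all gene models differed and 12.6% were higher. The libraries of both levels did not overlap for any of the 9. The share of all gene models without overlap on that day was not counted, so the lack of overlap cannot be set against it. The thinning level, the sampling and the labelling of that single day cannot be told apart here. VIT_05s0136g00260 measured 40.2, 44.9 and 43.8 RPKM at 50% and 174, 213 and 211 RPKM at 75% (2.18 ± 0.41, limma, adjusted p = 1.54e-05). VIT_04s0023g03370 measured 11.1, 11.8 and 10.2 RPKM at 50% and 46.4, 50.8 and 56.4 RPKM at 75% (2.12 ± 0.37, adjusted p = 3.21e-06).

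The other chalcone synthases and the isomerase VIT_13s0067g03820 also had every 75% library above every 50% library. VIT_14s0068g00920 measured 10.3, 15.2 and 11.0 RPKM at 50% and 48.9, 33.8 and 47.9 RPKM at 75%, and VIT_13s0067g03820 measured 15.6, 16.1 and 15.2 RPKM at 50% and 44.9, 44.2 and 48.6 RPKM at 75%. VIT_14s0068g00930 measured 8.75, 8.75 and 8.37 RPKM at 50% and 39.0, 27.7 and 38.4 RPKM at 75%, each above its day 21 median. The 7 calls held when each of the 6 libraries of the day was left out in turn. The sugar labels of the day overlapped, with 0.56, 0.57 and 0.57 g per 100 ml at 50% and 0.59, 0.51 and 0.48 at 75%.

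On day -18, the next day sampled, the calls were absent. At that time VIT_05s0136g00260 measured 88.7, 124 and 41.1 RPKM at 50% thinning and 81.5, 61.4 and 32.1 RPKM at 75%, and 0 of 9 enzymes passed, where 16.6% of all gene models did. The difference on day -28 minus that on day -18 passed in 7 of 9 (31.8% of all gene models), for example by 2.99 ± 0.53 in VIT_04s0023g03370 (limma, adjusted p = 2.02e-06). It uses the same libraries of day -28 and is no separate evidence.

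**Figure D5:**
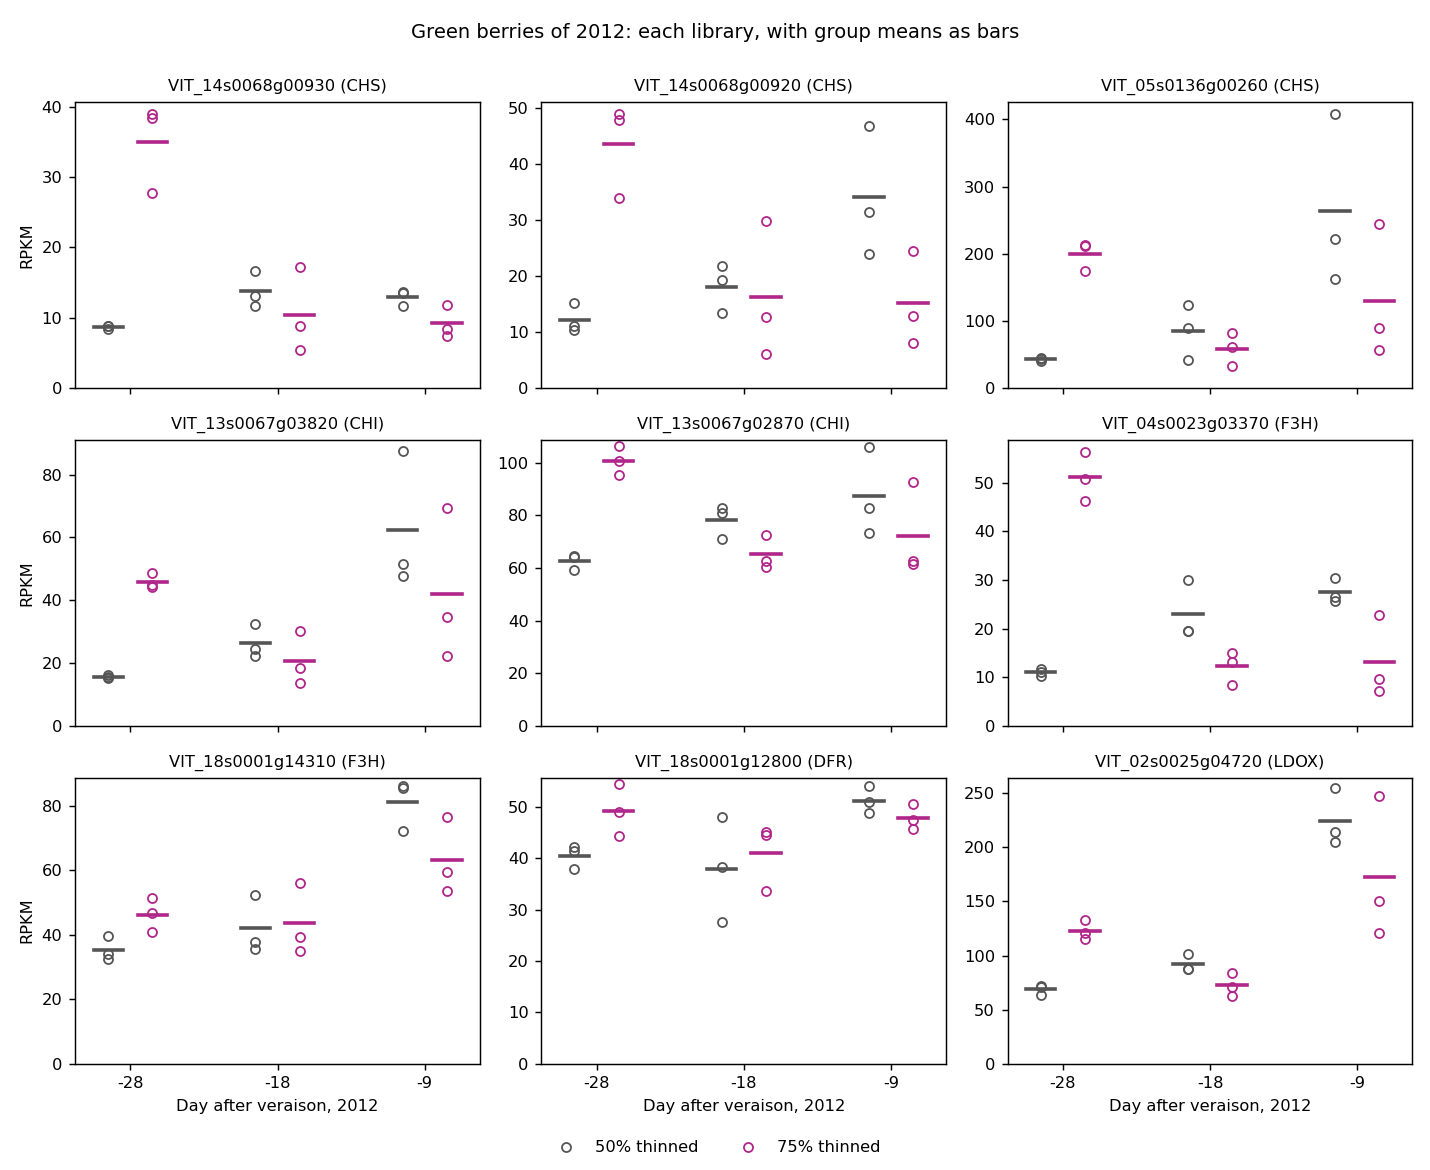
RPKM of the 9 enzymes in the green berries of 2012 (1 panel for each), on day -28, -18 and -9. Circles are single libraries and bars the mean of 3, grey for 50% and magenta for 75% thinning. On day -28 the circles of both levels are apart in all 9 panels, with VIT_05s0136g00260 at 40.2 to 44.9 RPKM against 174 to 213.

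The change from day -28 to day -9 of 2012 starts from these same day -28 libraries. From day -28 to day -9 over both levels 1 of 9 rose, the dioxygenase VIT_02s0025g04720 by 1.05 ± 0.15 (limma, adjusted p = 3.86e-10), where 4.85% of all gene models rose (6.19% after quantile normalization, which moved the median by 0.18). Without replicate number 2 this call was lost (0 of 9), and without number 1 or 3 there were 2. At 50% thinning 6 rose (5.11% of all), among them VIT_05s0136g00260 by 2.48 ± 0.41 and VIT_13s0067g03820 by 1.88 ± 0.28. At 75% thinning 0 rose and 3 fell (12.3% of all), VIT_04s0023g03370 by -2.03 ± 0.37, VIT_14s0068g00930 by -1.83 ± 0.31 and VIT_14s0068g00920 by -1.58 ± 0.41. The change at 75% minus that at 50% is the thinning difference of day -9 minus that of day -28, and adds no independent evidence on the latter. It passed in 7 of 9 on the adjusted p (11.7% of all); for the hydroxylase VIT_18s0001g14310 it was -0.75 ± 0.27 (adjusted p = 0.0519) and for the reductase -0.37 ± 0.24 (adjusted p = 0.376).

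The remaining call of a single day was VIT_05s0136g00260 on day -7 of 2013. It measured 215, 140 and 295 RPKM at 50% and 32.6, 21.6 and 188 RPKM at 75%, so that the levels overlapped, with a difference of -1.99 ± 0.41 (limma, adjusted p = 0.0137, 0.0635% of all gene models called). The sugar labels were 5.04, 4.24 and 4.07 g per 100 ml at 50% and 2.98, 4.38 and 3.06 at 75%; their part in the difference was not tested on that day. Leaving out each of the 6 libraries in turn gave 0 calls on that day for 4 of them, 3 for replicate 2 of the 50% level and 2 for replicate 3 of the 75% level. Over the other 24 days 0 of 216 values passed, where between 0% and 16.6% of all gene models did on a day, and 20 had an unadjusted p below 0.05, of which 5 were higher and 15 lower.

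Across the 55 group means the enzymes were not equally alike. The isomerase VIT_13s0067g03820 had a Pearson r of 0.96 with both VIT_05s0136g00260 and VIT_14s0068g00920, and VIT_14s0068g00920 one of 0.95 with the hydroxylase VIT_04s0023g03370. The reductase had an r of 0.19 to 0.57 with the other 8, and the dioxygenase one of 0.22 to 0.72. These values describe groups that share seasons and a common time course. Among all other tested gene models the most like VIT_13s0067g03820 was VIT_13s0019g04460 (r = 0.99 over 55 groups), which is also on the wider list described next, and the most like VIT_05s0136g00260 was VIT_01s0010g02460 (r = 0.96). For the reductase the highest r of any gene model was 0.65.

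A wider list of 42 identifiers around the pathway, drawn up from general knowledge and not annotated in the files, had 41 tested members. From the green stage to day 21, 19 of these rose, 7 fell and 15 were not called, with a median of 0.80, beside 7.66% and 22.3% over all tested gene models. The highest were VIT_04s0079g00690 (9.52 ± 0.27) and VIT_02s0033g00390 (6.21 ± 0.18), and the lowest VIT_14s0006g01620 (-3.18 ± 0.06) and VIT_07s0005g01210 (-3.08 ± 0.08). From day 14 (11 in 2012) to day 35 (32 in 2012) 1 of 41 rose and 0 fell, beside 1.74% and 4.95% of all gene models. By thinning over all matched days 0 of 41 were higher and 2 lower, beside 0.689% and 2.21%.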

How the data were processed

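The authors deposited RPKM values for 29971 gene models in 165 libraries. TopHat2 2.0.6 and Cufflinks 2.0.2 appear, with no role given, per the submitters' processing notes; the genome build, annotation and settings are not given in the sources used here. Per the labels' protocols, non-directional TruSeq libraries were made from 2.5 µg of total RNA, so reads of a gene and of an antisense partner cannot be told apart.

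From these RPKM values log2(RPKM + 1) was computed, which understates changes of low genes. The 20460 gene models with at least 1 RPKM in 3 or more libraries were tested with limma 3.58.1 in R 4.3.3 (trended prior, 1 mean per group, all 55 groups in a single fit, 110 residual degrees of freedom), with Benjamini-Hochberg adjustment over all of them. Changes over ripening, steps and seasons were called at an adjusted p below 0.05 and a log2 size of at least 1, and thinning and F-tests at an adjusted p below 0.05. Season averages weight seasons equally. The fit was checked on simulated data with independent normal noise of the fitted spread. Such data cannot show dependence between libraries or a fault in the RPKM scaling. No 2 libraries held identical values. The members and lists were chosen with earlier results of these data known. All 9 members are named; the 3 other tested gene models most correlated with each were ranked over group means, and the first is given for some. Alternatives changed the pseudocount (0.1), the filter, the scaling, the replicates, the days and the covariates. Gene names, sequences and coordinates were not used here.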

Additional observations from a re-analysis of the deposited data

Results flagged for a closer look

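The change across veraison differed between seasons in all 9 enzymes by limma's F-test, as it did in 59.4% of all gene models. The start days of the 3 seasons were not matched by sugar, and the part of this in the difference was not tested. The range of the 3 seasonal log2 changes was 1.81 for VIT_04s0023g03370, 1.72 for VIT_14s0068g00920, 1.33 for VIT_13s0067g03820, 1.17 for VIT_14s0068g00930 and 1.17 for VIT_05s0136g00260. It was 0.91 for VIT_13s0067g02870, 0.85 for VIT_02s0025g04720, 0.55 for VIT_18s0001g14310 and 0.49 for VIT_18s0001g12800. For 7 of them, all but VIT_05s0136g00260 and VIT_02s0025g04720, the lowest change was that of 2014. The test passed for 5 with day 0 as the early day of 2014 (49.8% of all gene models). It passed for 5 to 7 when 1 replicate number was left out (46.3% to 53.1% of all).

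The thinning difference was higher from veraison to day 14 than before veraison in 3 enzymes, where 5.73% of all gene models differed in either direction. It was higher by 0.86 for VIT_04s0023g03370, 0.76 for VIT_14s0068g00920 and 0.31 for VIT_13s0067g02870. Over this and the later phase difference, 0 to 1 calls were made when any 1 replicate number was left out, and 0 with sugar as a covariate.

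The thinning difference on day -28 of 2012 exceeded that of day -18 in 7 enzymes, where 31.8% of all gene models differed in either direction. The excess on the log2 scale was 2.99 for VIT_04s0023g03370, 2.67 for VIT_05s0136g00260, 2.38 for VIT_14s0068g00930 and 2.13 for VIT_14s0068g00920. It was 1.88 for VIT_13s0067g03820, 1.18 for VIT_02s0025g04720 and 0.94 for VIT_13s0067g02870. This difference was tested after the values of both days had been seen, and thinning, sampling and labelling of day -28 cannot be told apart in it.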

How the results depend on the processing

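Replicate numbers did not pair the 50% and 75% libraries of a day. Deviations from the group mean correlated with a median r of -0.008 for the same number, and 20 of 78 pairs exceeded 0.1. For other numbers the median r was -0.005, and 41 of 156 pairs did. Libraries of different days were not compared in this way. With a replicate block the ripening change called 6 enzymes and thinning before veraison 2, as without it, and no count changed. Calls counted for the 9 enzymes changed as follows. No share over all gene models stands beside these counts. They do not tell whether the enzymes moved apart from other gene models. Quantile normalization gave 5 for the veraison change. Leaving out 1 replicate number gave 0 to 2 for the green change, 0 to 0 for thinning before veraison, 0 to 1 for the difference between phases, 0 to 2 for 2014 minus 2013, 6 to 13 for single days and 5 to 7 for the season F-test of the veraison change. Without replicates 1 and 2 of the 50% level on day -18 of 2012 the phases differed in 5, with sugar as covariate in 0, and on means over the libraries of a replicate number, season and level in 1, with 0 for thinning before veraison; without replicate 2 of the 75% level on day 0 of 2012 the steps gave 17 (18 with it) and single days 9 (8 with it). The following were chosen after seeing the data. Without replicates 1 and 3 of day -18 the phases differed in 4 and the steps gave 16; in both fits the lone library is assumed to vary like the other groups. Day 0 as early day of 2014 gave 5 in the season F-test. The green change called 6 at 50% and 3 at 75%. Adjusted p alone gave 5 for the green, 8 for the veraison and 7 for the late change, 13 for 2014 minus 2013 and 1 at day 21. Thinning before veraison called 5 without day -28 of 2012, and 0 when day -18 or -9 (2012), -14 or -7 (2013) or -6 (2014) was left out. The phases (both differences, with 9 values in each) gave 12 without day -28 (2012) and 6 without day -14 (2014). They gave 1 when day -9 or 11 (2012) or -6 or 14 (2014) was left out.

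Of 819 member values recomputed, 723 kept their direction and side of the threshold, 47 lost a call, 29 gained one and 20 changed sign. They cover the ripening, green, veraison and late change, thinning before veraison, and veraison to day 14 minus before veraison. Of the 47 lost calls 18 were in thinning before veraison and 26 in that difference between phases. In the green change quantile normalization gave 0.067 for VIT_14s0068g00920 and 0.024 for VIT_13s0067g02870, and leaving out 1 replicate number gave -0.43 to 0.086 and -0.20 to 0.088. At 50% thinning alone the green change was 1.38 for VIT_14s0068g00920, 0.46 for VIT_13s0067g02870, 0.54 for VIT_14s0068g00930 and 1.25 for VIT_04s0023g03370. At 75% alone it was -0.89 for VIT_05s0136g00260, -0.27 for VIT_13s0067g03820 and -0.034 for VIT_18s0001g12800. The veraison change of VIT_14s0068g00930 was -0.052 to 0.14 with 1 replicate number left out. In thinning before veraison, leaving out 1 replicate number gave -0.099 to 0.0084 for VIT_14s0068g00930 and -0.19 to 9.1e-05 for VIT_02s0025g04720. There VIT_14s0068g00930 was 0.10, 0.098 and 0.067 when day -18 (2012), day -9 (2012) or day -6 (2014) was left out, and VIT_02s0025g04720 was 8.7e-04 when day -9 (2012) was. The cause was not tested.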
